A study of Mus musculus with 15 samples.

Results

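The comparison of R6/2 mice with wild type (WT) littermates at 9 weeks of age rested on 8 of the 15 arrays of the study, 4 titled R6/2 and 4 titled wild type, chosen by their titles alone. R6/2 mice carry, on a C57BL/6J background, a transgene with exon 1 of human HTT, the fragment that encodes the polyglutamine tract, with 162 ± 2.8 (SD) CAG repeats. WT mice were C57BL/6J littermates without it. The labels place the R6/2 mice at the symptomatic stage, and total RNA of both groups came from the eyeball. According to the methods RNA was pooled into the samples, so that an array need not be 1 animal and the p-values measure only the spread between these samples. The sources differ on the labelling kit, which is GeneChip IVT Express in the labels and GeneChip WT Plus in the methods. Values are log2 signals of Affymetrix Mouse Gene 2.1 ST arrays after RMA, a method that corrects background, normalizes arrays and summarizes the probes of a transcript, and 1 unit is a doubling. Of 41345 probe sets, 23521 carry 1 gene symbol and gave the 22180 genes described here.

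Huntington's disease arises from an expanded CAG repeat in HTT. The eye is a composite organ. In the retina, cones detect colour and rods dim light, and both pass light signals through opsin, transducin and phosphodiesterase. Around the globe, extraocular muscles hold fast, slow and tonic fibre types that few other muscles combine. The Harderian, lacrimal and meibomian glands of the orbit and lids make lipid and protein secretions, and orbital fat contains white and brown adipocytes. In a whole-eye sample, fewer cells of a type and less RNA per cell cannot be told apart.

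Array medians lay between 2.80 and 2.89 and interquartile ranges between 2.43 and 2.61 over the 8 arrays. Sex-linked transcripts did not divide the arrays. Xist, the RNA that coats the inactive X chromosome, had 9.35 to 9.38 in R6/2 eyes and 9.10 to 9.39 in WT eyes, and the Y-linked genes Eif2s3y, Kdm5d and Uty had 1.28 to 1.63 in R6/2 eyes and 1.44 to 2.00 in WT eyes. The label of the tissue was borne out by high levels of the rod transducin Gnat1, with 10.62 to 10.83 in R6/2 eyes and 10.63 to 11.04 in WT eyes, of the lens crystallin Cryaa, with 11.27 to 11.36 in R6/2 eyes and 10.85 to 11.33 in WT eyes, and of the corneal keratin Krt12, with 9.80 to 10.36 in R6/2 eyes and 9.54 to 10.07 in WT eyes. Mouse Htt had 6.18, 6.31, 6.44 and 6.21 in R6/2 eyes and 6.35, 6.15, 6.28 and 6.2 in WT eyes, and the groups overlapped. The probes are designed on mouse transcripts and are no check of the human transgene. WT replicates 2 and 4 stood apart from WT replicates 1 and 3 in transcripts of glands and lipid synthesis, as described below, and values with and without them are given where they matter.

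Among called genes, the largest differences in R6/2 eyes were losses of cone and fast muscle transcripts, and the gains, equal in number and smaller in size, were led by Tmem26, Spc25 and Fabp7. The gland transcript Elovl3, at -3.10, differed by more than any muscle gene without being called. Of 11090 genes in the upper 50% by interquartile range, 30 were up-regulated in R6/2 eyes, which is 0.271% of those tested, and 30 were down-regulated, again 0.271% (limma, with the study's thresholds of 0.05 for the p-value and 0.20 for its Benjamini-Hochberg adjustment). Fitted on all 22180 genes, 26 were up-regulated (0.117%) and 25 down-regulated (0.113%), and 49 of these were the same genes. At an adjusted p under 0.05, 2 were up-regulated and 10 down-regulated. The share of 0.271% of tested genes in each direction is the background for the called members of each list below. The typical size was unequal, with a median absolute log2 fold change of 0.71 among the up-regulated and 1.10 among the down-regulated genes. The 4 R6/2 arrays were all above the 4 WT arrays in 785 genes, or 3.54% of 22180, and all below them in 375, or 1.69%, and the 60 called genes were among these. The median log2 fold change over all genes was 0.02, and 96.2% of genes differed by less than 0.5. The spread was wider in WT eyes, with a median SD per tested gene of 0.16 in R6/2 eyes and 0.23 in WT eyes.

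**Figure D1:**
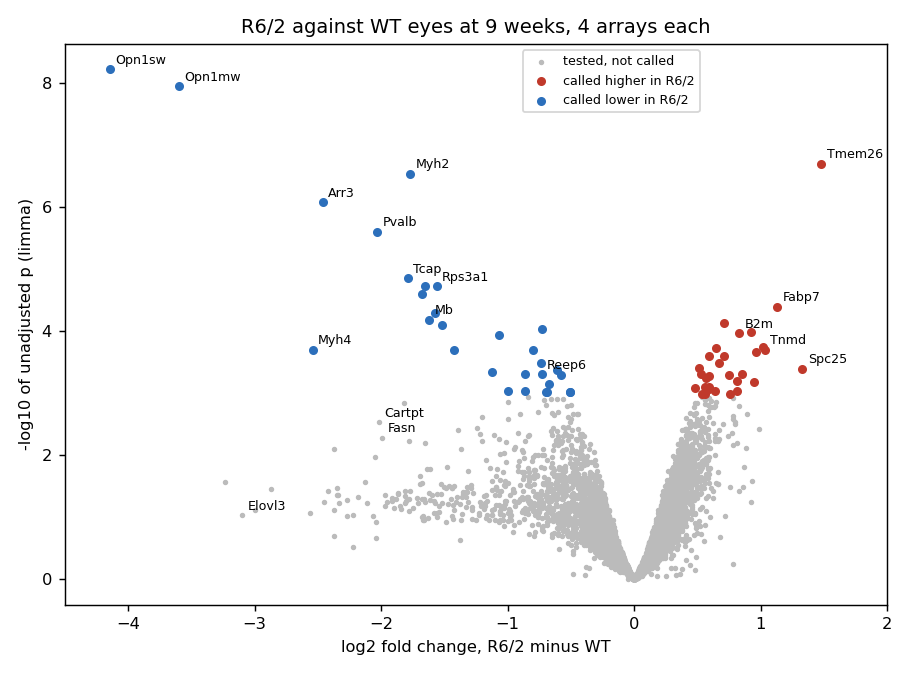
Log2 fold change (R6/2 minus WT) against −log10 of the unadjusted limma p for the 11090 tested genes, with genes called higher in R6/2 eyes in red and lower in blue. Opn1sw and Opn1mw lie farthest to the left among called genes, while Elovl3, Fasn and Cartpt, with log2 fold changes of -3.10, -1.99 and -2.02, were not called.

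Cone photoreceptor transcripts showed the deepest losses. The promoter sequences of the 4 called cone genes are shown because these genes lead the results and because the factors CRX and OTX2, which drive photoreceptor genes, bind motifs built on TAATC. They are the 150 bases before the start of each gene on its own strand, from RefSeq on build GRCm38.p6, with TAATC on either strand in capitals (GATTA is the same motif on the other strand). Opn1sw is at chr6:29380514-29380663 on the minus strand, Opn1mw at chrX:74127316-74127465, Arr3 at chrX:100605347-100605496 and Gnat2 at chr3:108092916-108093065, all 3 on the plus strand.
Opn1sw: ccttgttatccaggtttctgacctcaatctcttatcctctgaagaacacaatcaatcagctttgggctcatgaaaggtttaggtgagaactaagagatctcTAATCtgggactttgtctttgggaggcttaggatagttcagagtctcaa
Opn1mw: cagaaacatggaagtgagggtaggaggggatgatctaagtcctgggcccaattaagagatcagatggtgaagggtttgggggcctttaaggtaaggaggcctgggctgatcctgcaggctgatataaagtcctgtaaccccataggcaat
Arr3: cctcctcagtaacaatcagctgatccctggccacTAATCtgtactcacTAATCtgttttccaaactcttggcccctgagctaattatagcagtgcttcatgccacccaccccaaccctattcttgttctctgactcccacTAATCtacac
Gnat2: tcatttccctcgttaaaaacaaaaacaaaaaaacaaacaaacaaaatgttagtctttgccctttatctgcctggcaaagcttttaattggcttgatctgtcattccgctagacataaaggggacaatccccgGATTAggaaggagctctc
The longer core TAATCC, searched on both strands in the window from 250 bases before to 50 after the start, was in 1 of these 4 promoters, that of Gnat2, and in 7.06% of all 32851 promoters of the table. The shorter TAATC, added after the sequences had been seen, was in 3 of the 4 and in 22.0% of all promoters, with 3 copies before Arr3. A match of letters is no evidence of binding. No promoter of Reep6, the called rod gene, was used here.

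Opn1sw (opsin 1, short-wave-sensitive), the blue and ultraviolet cone pigment, had 3.22, 2.89, 3.74 and 3.24 in R6/2 eyes and 7.91, 7.17, 7.71 and 6.88 in WT eyes. Opn1mw (opsin 1, medium-wave-sensitive), the green cone pigment, had 2.39, 2.01, 2.61 and 2.86 in R6/2 eyes and 6.39, 5.78, 6.43 and 5.67 in WT eyes. Both opsins separated the groups widely, and Opn1mw lay below the median of its own array in each R6/2 eye. Opn1sw lay below the median over genes in R6/2 replicates 1, 2 and 4 (3.29, 3.28 and 3.3) and above it in R6/2 replicate 3 (3.28). No background level was analysed here, so the percent of WT of Opn1mw is an upper limit, and that of Opn1sw may be one too. Opn1sw was down-regulated to 5.66% of WT (log2 fold change -4.14, standard error 0.24, limma adjusted p = 6.35e-05) and Opn1mw to at most 8.24% (-3.60, standard error 0.23, adjusted p = 6.35e-05). Arr3 (arrestin 3), which ends the signalling of cone opsins, had 3.96, 4.17, 4.19 and 4.43 in R6/2 eyes and 6.93, 6.63, 7.14 and 5.90 in WT eyes. It was down-regulated to 18.1% of WT (log2 fold change -2.46, standard error 0.24, limma adjusted p = 0.00186). Gnat2, the alpha subunit of cone transducin, had 3.69, 3.61, 3.5 and 3.87 in R6/2 eyes and 4.63, 4.61, 4.49 and 4.13 in WT eyes. The fall of Gnat2, to 57.5% of WT, was smaller (log2 fold change -0.80, standard error 0.14, limma adjusted p = 0.0916). In all 4 genes WT replicate 4 was the lowest WT array and still above every R6/2 array.

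The loss was uneven over the cone list. Of 18 cone genes measured, 16 were tested. Of these, 4 were down-regulated, beside 0.271% of all genes tested, and none up-regulated. Of the 18, 14 had a negative and 4 a positive log2 fold change, and the median was -0.30 against 0.02 over all genes. Pde6c, which encodes the catalytic part of phosphodiesterase in cones, had 4.0, 5.01, 5.13 and 4.98 in R6/2 eyes and 6.03, 5.95, 5.62 and 5.08 in WT eyes, a log2 fold change of -0.89 that did not pass (limma adjusted p = 0.334). R6/2 replicate 1 was the lowest and R6/2 replicate 3 overlapped WT replicate 4. Pde6h, its inhibitory subunit, had all R6/2 arrays below all WT arrays at -0.35 (adjusted p = 0.385). The channel subunits Cnga3 and Cngb3 had -0.04 and -0.12, and Gnb3, the beta subunit of transducin, which bipolar cells also express, had 0.52 (adjusted p = 0.396). Pde6c, Pde6h, Cnga3, Cngb3 and Gnb3 were named after their values had been seen. The list holds Opn1sw, Opn1mw, Arr3 and Gnat2, whose decline in these mice was known when it was written. It is not independent evidence of direction.

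Rod transcripts held 1 call. All 16 rod genes measured were tested and had a negative log2 fold change, with a median of -0.16. Of the 16, only Reep6 was called, beside 0.271% of all genes tested. The decline of Reep6 was known when the list was written, so the list is not independent evidence of direction. Reep6 (receptor expression-enhancing protein 6), which shapes membranes and trafficking in rods, had 9.04, 9.07, 9.04 and 9.03 in R6/2 eyes and 10.08, 9.91, 9.72 and 9.40 in WT eyes, down-regulated to 60.2% of WT (log2 fold change -0.73, standard error 0.15, limma adjusted p = 0.142). The R6/2 arrays were tightly grouped, all below the lowest WT array, replicate 4. Sag, rod arrestin, had 9.13, 9.32, 9.15 and 9.26 in R6/2 eyes and 9.92, 9.44, 9.75 and 9.23 in WT eyes, and Rom1, an outer segment disc protein, had 6.10, 6.34, 6.30 and 6.18 in R6/2 eyes and 6.86, 6.55, 6.82 and 6.19 in WT eyes. Sag and Rom1 each had a log2 fold change of -0.37 and overlapped between groups through WT replicate 4 alone, and neither passed (limma adjusted p = 0.416 and 0.419). The mean of the rod list was 7.75, 7.91, 7.76 and 7.76 in R6/2 eyes and 8.25, 7.97, 8.23 and 7.59 in WT eyes, so that WT replicate 4 lay below every R6/2 array. The median over the rod list was -0.45 without WT replicates 2 and 4 and 0.04 without WT replicates 1 and 3, and that over the cone list -0.43 and 0.02 in these same settings, while Opn1sw kept -4.54 and -3.75.

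**Figure D2:**
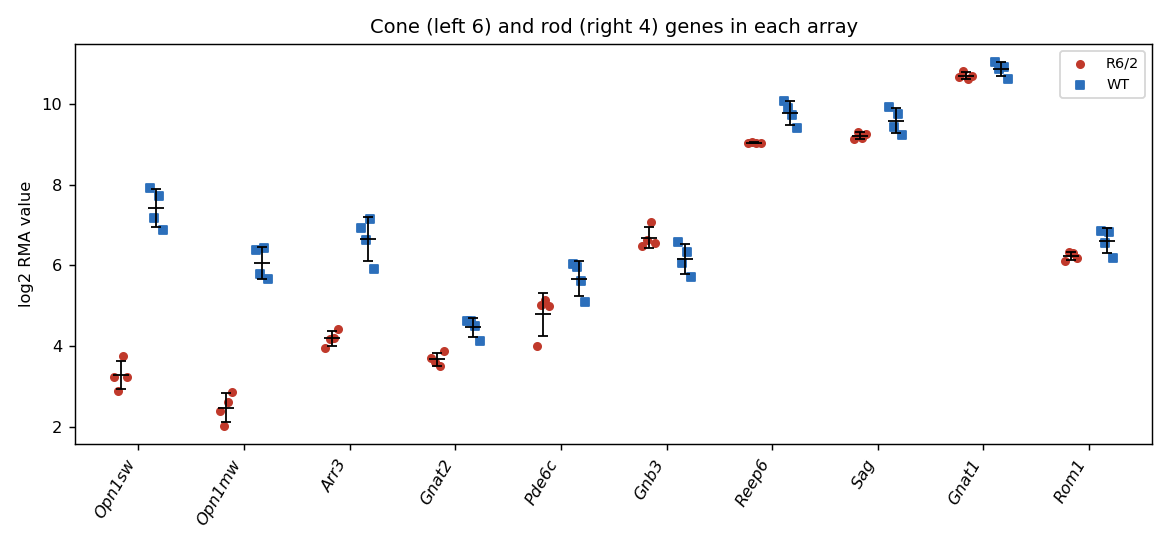
Log2 RMA values of 6 cone and 4 rod genes in each array, R6/2 in red at left and WT in blue at right of each gene, with the mean and SD (n = 4 arrays). Opn1sw, Opn1mw, Arr3, Gnat2 and Reep6 do not overlap, and Opn1sw averages 3.27 in R6/2 eyes and 7.42 in WT eyes.

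Other retinal lists held few calls. Of 17 amacrine and horizontal cell genes measured, 10 were tested, and the calcium buffer Pvalb was called. Fast muscle fibres also express Pvalb, which is described with them. Tfap2b, a transcription factor of both cell types, had 5.76, 6.23, 5.91 and 6.07 in R6/2 eyes and 6.40, 6.64, 6.58 and 6.60 in WT eyes without overlap (log2 fold change -0.56, limma adjusted p = 0.208). C1ql1, a secreted synaptic organizer, likewise had no overlap at -0.50 (adjusted p = 0.219). No member of the bipolar, ganglion cell, ribbon synapse, outer segment, photoreceptor transcription factor, Mueller glia, visual cycle, melanocyte or neuropeptide lists was called. In each of these lists some measured genes were not tested. The list medians lay between -0.10 for the visual cycle list and 0.22 for the melanocyte list. Without WT replicates 2 and 4 the medians turned to -0.12 for the outer segment list, against 0.17 with all arrays, to -0.06 for the ribbon synapse list, against 0.19, and to -0.02 for the Mueller glia list, against 0.15. In that setting the bipolar list had -0.28, the visual cycle list -0.22 and the melanocyte list 0.02. Among the members with the lowest p, Rbpms, a ganglion cell marker, had -0.65 (limma adjusted p = 0.250), and all R6/2 arrays were below all WT arrays. Stmn2, a neuronal tubulin regulator, Scgn, of cone bipolar cells, Crym, a thyroid hormone binding protein, and Syp, synaptophysin, had 0.52, 0.58, 0.50 and 0.43 with all R6/2 arrays above all WT arrays (adjusted p = 0.334, 0.362, 0.266 and 0.334). Cabp5, a bipolar cell calcium sensor, and Rgr, an opsin of the pigment epithelium, had -0.57 and -0.44 and overlapped (adjusted p = 0.379 and 0.396).

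Fabp7 (brain-type fatty acid binding protein), of Mueller glia and astrocytes, was up-regulated. It had 6.01, 6.13, 5.54 and 5.95 in R6/2 eyes and 5.14, 4.57, 4.67 and 4.76 in WT eyes. R6/2 eyes reached 218% of WT with no overlap (log2 fold change 1.13, standard error 0.17, limma adjusted p = 0.0412). Of 12 fatty acid binding protein genes measured, 8 were tested and Fabp7 was the one call. The list median was 0.04, and Fabp12, a retinal member, had 0.39 with no overlap (adjusted p = 0.334). Elovl2, which elongates very long-chain polyunsaturated fatty acids and is abundant in the retina, had 6.64, 6.62, 6.65 and 6.76 in R6/2 eyes and 5.99, 5.93, 5.75 and 5.17 in WT eyes. It was up-regulated to 194% of WT (log2 fold change 0.96, standard error 0.17, limma adjusted p = 0.0916).

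Fast muscle transcripts were the largest group of called genes. All 21 fast fibre genes measured were tested and had a negative log2 fold change, with a median of -1.01. Of the 21, 9 were down-regulated, beside 0.271% of all genes tested. The mean of this list was 6.11, 4.89, 5.75 and 5.33 in R6/2 eyes and 6.99, 6.46, 6.57 and 6.74 in WT eyes, with R6/2 replicate 2 the lowest and no overlap. The list holds Myh2, Pvalb, Myh4, Tcap, Mb and Mylk4, whose decline in these mice was known when it was written, and is not independent evidence of direction. The median was -1.21 without WT replicates 2 and 4.

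The fast myosins Myh4 and Myh2, neighbouring genes on chromosome 11, share within their promoter windows a run of 21 bases that no other of the 32851 promoters held, and the run is shown in capitals, 30 bases included on each side, because the genes fell together. RefSeq on build GRCm38.p6 places the stretch of Myh4 at chr11:67237618-67237698 and that of Myh2 at chr11:67170866-67170946, both on the plus strand. It was found after the sequences had been seen and is no claim of a site.
Myh4: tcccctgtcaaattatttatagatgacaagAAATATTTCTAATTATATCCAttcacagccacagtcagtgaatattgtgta
Myh2: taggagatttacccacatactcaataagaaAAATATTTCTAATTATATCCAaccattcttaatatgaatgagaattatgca
Myh4, the heavy chain of the fastest (type IIB) fibres, had 6.97, 4.37, 6.57 and 6.03 in R6/2 eyes and 8.86, 8.36, 8.26 and 8.64 in WT eyes. It was down-regulated to 17.2% of WT, the largest fall of a muscle gene (log2 fold change -2.54, standard error 0.46, limma adjusted p = 0.0916), with R6/2 replicate 2 far below the other R6/2 arrays. Myh2, of type IIA fibres, had 5.16, 4.71, 5.21 and 4.77 in R6/2 eyes and 6.97, 6.55, 6.70 and 6.69 in WT eyes. It was the most evenly reduced, at 29.4% of WT (log2 fold change -1.77, standard error 0.15, limma adjusted p = 0.000818). Myh1, of type IIX fibres, had 6.52, 4.79, 5.83 and 5.06 in R6/2 eyes and 6.92, 6.38, 6.60 and 7.17 in WT eyes. R6/2 replicate 1 overlapped WT replicate 2, and Myh1 was not called (log2 fold change -1.22, limma adjusted p = 0.303), which was noted after its values had been seen.

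The other called fast fibre genes covered the sarcomere, calcium handling and oxygen storage. Pvalb (parvalbumin), which buffers calcium for relaxation, had 4.33, 3.59, 4.11 and 4.0 in R6/2 eyes and 6.58, 5.62, 5.80 and 6.14 in WT eyes (24.5% of WT, log2 fold change -2.03, limma adjusted p = 0.00468). Tcap (telethonin), which caps titin at the Z-disc, had 5.52, 4.31, 5.02 and 4.81 in R6/2 eyes and 6.98, 6.37, 6.69 and 6.78 in WT eyes (28.9% of WT, -1.79, adjusted p = 0.0223). Actn3, the Z-disc actinin of fast fibres, had 4.37, 3.69, 4.13 and 3.95 in R6/2 eyes and 6.26, 5.2, 5.76 and 5.52 in WT eyes (31.8% of WT, -1.65, adjusted p = 0.0236). R6/2 replicate 2 was the lowest array in all 3 and replicate 1 the highest R6/2 array. Mb (myoglobin), the oxygen store, had 4.63, 3.69, 4.47 and 4.91 in R6/2 eyes and 6.18, 5.68, 5.88 and 6.44 in WT eyes (32.5% of WT, -1.62, adjusted p = 0.0566). Mylk4, a myosin light chain kinase, and Atp2a1, the calcium pump SERCA1, fell to 33.6% and 37.4% of WT (log2 fold changes -1.57 and -1.42, adjusted p = 0.0469 and 0.0916). Tnni2, fast troponin I, fell to 49.9% (-1.0, adjusted p = 0.190), at the edge of the threshold. The 12 members not called included the contractile actin Acta1 at -1.20, the calcium release channel Ryr1 at -1.01, the calcium store protein Casq1 at -1.0, creatine kinase Ckm at -0.88 and glycogen phosphorylase Pygm at -0.20, named after their values had been seen apart from Ryr1.

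Muscle transcripts outside the fast programme held fewer calls. Of 18 slow and cardiac genes measured, 12 were tested and 2 were down-regulated, beside 0.271% of all genes tested. The median was -0.15. Mybphl, a myosin-binding protein, had 2.59, 2.84, 2.13 and 2.50 in R6/2 eyes and 4.15, 4.11, 3.33 and 4.55 in WT eyes (at most 34.9% of WT, since each R6/2 value was below its array median, log2 fold change -1.52, limma adjusted p = 0.0598). Tnni1, slow troponin I, had 3.43, 3.25, 3.21 and 3.52 in R6/2 eyes and 3.84, 3.89, 3.91 and 3.81 in WT eyes (70.2% of WT, -0.51, adjusted p = 0.190). Both fell without overlap, whereas the slow myosin Myh7 had -0.02. Tpm3, slow tropomyosin, had no overlap at -0.44 (adjusted p = 0.250). Of 18 extraocular and developmental genes measured, 17 were tested, Myh15 was called, and the median was -0.08. Myh15, a slow tonic myosin found in extraocular muscle, had 4.26, 4.03, 4.40 and 4.35 in R6/2 eyes and 6.19, 6.54, 5.29 and 5.75 in WT eyes (31.1% of WT, log2 fold change -1.68, standard error 0.24, limma adjusted p = 0.0279). Myh13, the myosin restricted to extraocular and laryngeal muscle, had 6.13, 4.12, 5.77 and 4.78 in R6/2 eyes and 7.27, 6.93, 6.26 and 7.61 in WT eyes. It did not overlap but missed the threshold (-1.82, adjusted p = 0.214), as did embryonic myosin Myh3 (-0.90, adjusted p = 0.250). The myogenic factors Myod1, Myog, Myf5 and Myf6 had 0.07, 0.16, 0.20 and -0.12. Of 15 denervation and atrophy genes measured, 10 were tested and none was called, and Fbxo32, a ubiquitin ligase of atrophy, had -0.33 (adjusted p = 0.470). Tmod4, skeletal tropomodulin, was down-regulated to 70.0% of WT (-0.51, adjusted p = 0.190) and was named, like Myh7 and the myogenic factors, after its value had been seen.

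**Figure D3:**
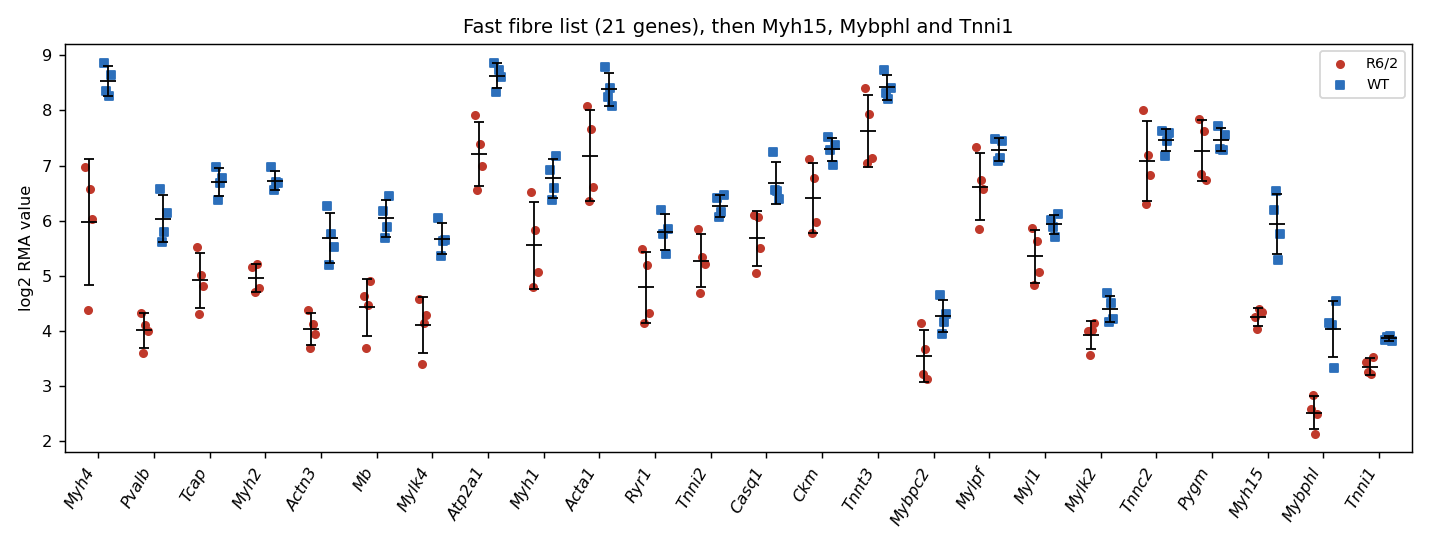
Log2 RMA values of the 21 fast fibre genes, ordered by log2 fold change, and of Myh15, Mybphl and Tnni1, with R6/2 in red at left and WT in blue at right of each gene and the mean and SD (n = 4 arrays). All R6/2 arrays are below all WT arrays for 11 of the 21 fast genes, beside 1.69% of all genes. R6/2 replicate 2 is the lowest array of Myh4 at 4.37.

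Pfkfb2, a bifunctional kinase and phosphatase which sets the level of an activator of glycolysis, had 6.34, 6.55, 6.42 and 6.5 in R6/2 eyes and 7.24, 6.92, 7.07 and 6.92 in WT eyes. It was down-regulated to 66.7% of WT with no overlap (log2 fold change -0.58, standard error 0.12, limma adjusted p = 0.142). Of 22 glucose and energy genes measured, with a median of -0.18, 13 were tested and Pfkfb2 was the single call. Gpd1, glycerol-3-phosphate dehydrogenase, and Pgam2, the muscle phosphoglycerate mutase, had -0.84 and -0.56 (adjusted p = 0.303 and 0.296). Pfkfb3, named after its values had been seen, had 3.76, 3.66, 3.51 and 3.59 in R6/2 eyes and 4.19, 4.90, 3.9 and 5.77 in WT eyes, with the highest levels in WT replicates 2 and 4.

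Gains were led by Tmem26, a transmembrane protein known in mice as a surface marker of beige adipocytes. It had 5.09, 5.11, 5.32 and 5.0 in R6/2 eyes and 3.44, 3.79, 3.72 and 3.67 in WT eyes. The groups did not overlap, and R6/2 eyes reached 278% of WT (log2 fold change 1.48, standard error 0.12, limma adjusted p = 0.000748). Spc25, a kinetochore component of the Ndc80 complex, had 5.83, 5.71, 6.38 and 6.5 in R6/2 eyes and 4.43, 5.51, 4.68 and 4.49 in WT eyes, or 251% of WT (1.33, standard error 0.26, adjusted p = 0.141). Of 22 cell cycle genes measured, 8 were tested and Spc25 was the one call. Bub1b, a spindle checkpoint kinase, had 3.41, 3.48, 3.69 and 3.57 in R6/2 eyes and 2.71, 3.17, 3.12 and 2.84 in WT eyes, with no overlap (0.58, adjusted p = 0.219), while cyclin A2, Ccna2, had -0.31 and the list median was 0.10.

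Connective tissue held several of the up-regulated genes. All 26 genes of the keratocyte, sclera and matrix list had a positive log2 fold change, with a median of 0.32. Of these, 24 were tested and 3 were up-regulated, beside 0.271% of all genes tested. Tnmd (tenomodulin), of tendon and sclera, had 4.45, 4.25, 4.22 and 3.75 in R6/2 eyes and 3.18, 3.37, 3.28 and 2.71 in WT eyes (205% of WT, log2 fold change 1.03, limma adjusted p = 0.0916). Col12a1, a collagen of fibril surfaces, had 6.72, 6.65, 6.35 and 6.23 in R6/2 eyes and 6.06, 5.60, 5.28 and 5.19 in WT eyes (194% of WT, 0.95, adjusted p = 0.165). Col1a2, a chain of type I collagen, had 7.08, 6.94, 7.06 and 6.76 in R6/2 eyes and 6.61, 6.27, 5.85 and 5.88 in WT eyes (175% of WT, 0.81, adjusted p = 0.190). In Col12a1 and Col1a2 WT replicate 1 came closest to the R6/2 arrays. The list mean was 5.54, 5.55, 5.42 and 5.35 in R6/2 eyes and 5.31, 5.08, 4.92 and 4.92 in WT eyes, with no overlap, and its median was 0.28 without WT replicates 2 and 4. That setting ended the calls of Col12a1 and Col1a2 (adjusted p = 0.280 and 0.294). A fit with the mean of gland and adipocyte transcripts as a covariate ended those of Tnmd, Col12a1 and Col1a2 (adjusted p = 0.272, 0.399 and 0.399). The covariate averaged the lacrimal and Harderian gland list and the adipocyte list. The meibomian and fatty acid synthesis lists were not entered as such. The covariate had 3.40 to 3.67 in R6/2 eyes and 3.71 to 4.63 in WT eyes, without overlap. It separated the groups, so a call lost with it cannot be assigned to gland and fat content. Matrix genes outside the list were also called. Thbs1 (thrombospondin 1) had 6.29, 6.58, 6.27 and 6.18 in R6/2 eyes and 5.57, 5.92, 5.44 and 5.15 in WT eyes (175% of WT, 0.81, adjusted p = 0.163). Thbs2 (thrombospondin 2) and Omd (osteomodulin), named after their values had been seen, rose by 0.65 and 0.67 on the log2 scale (adjusted p = 0.0916 and 0.121). Cpxm1, a carboxypeptidase-like secreted protein, had 4.65, 4.52, 4.67 and 4.24 in R6/2 eyes and 3.34, 3.9, 3.65 and 3.5 in WT eyes (190% of WT, 0.92, adjusted p = 0.0669).

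B2m (beta-2-microglobulin), the light chain of MHC class I, had 8.72, 9.03, 8.80 and 8.83 in R6/2 eyes and 7.88, 8.34, 8.01 and 7.85 in WT eyes. It was up-regulated to 177% of WT (log2 fold change 0.83, standard error 0.14, limma adjusted p = 0.0669). Of 17 MHC class I and interferon genes measured, 12 were tested and B2m was the one call, and H2-K1, a heavy chain, had 0.22. Ifit1, an interferon-induced gene, had 4.32, 5.55, 4.26 and 5.61 in R6/2 eyes and 3.74, 4.18, 4.72 and 3.65 in WT eyes, high in R6/2 replicates 2 and 4 (0.86, adjusted p = 0.405). Usp18, which restrains interferon signalling, showed the same 2 replicates highest among R6/2 eyes, with 3.53, 4.64, 4.14 and 4.67, and 3.58, 3.81, 3.88 and 3.24 in WT eyes (0.61, adjusted p = 0.405). Among genes often used as references for qPCR, 9 were measured, 6 were tested and B2m was the one called. Gapdh, Atp5b and Eif4a2 were not tested. Gapdh, Atp5b, Sdha, Canx and Actb had log2 fold changes of 0.02, 0.07, -0.05, -0.04 and 0.18, and Eif4a2, Cyc1 and Ywhaz had 0.18, -0.28 and 0.23. Eif4a2 kept the groups apart, with 7.31 to 7.36 in R6/2 eyes and 7.1 to 7.2 in WT eyes.

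The other large gains crossed several functions. Apela, a peptide ligand of the apelin receptor, had 4.55, 4.26, 4.67 and 4.11 in R6/2 eyes and 3.72, 3.16, 3.57 and 3.08 in WT eyes (203% of WT, log2 fold change 1.02, limma adjusted p = 0.0916). Gulo, which makes vitamin C, had 4.17, 4.30, 4.92 and 4.47 in R6/2 eyes and 3.65, 3.67, 3.79 and 3.35 in WT eyes (180% of WT, 0.85, adjusted p = 0.142). Both were separated from WT in every array. The ciliary and microtubule genes Ift22, of intraflagellar transport, and Tube1, epsilon-tubulin, rose to 164% and 168% of WT (0.71 and 0.75, adjusted p = 0.102 and 0.142). The genes that follow were named after their values had been seen. Tmem237, of the ciliary transition zone, rose by 0.64 (adjusted p = 0.190), and Slc6a15, a neutral amino acid transporter, by 0.71 (adjusted p = 0.0598). Smaller gains were those of Mir874, a microRNA gene (0.59), Rasa2, a RAS GTPase-activating protein (0.57), Vps37a, of ESCRT-I (0.54), Pkia, an inhibitor of protein kinase A (0.53), and Cdk19, a Mediator kinase (0.48).

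Among losses outside retina and muscle, Rps3a1, a ribosomal protein gene, had 6.86, 6.71, 6.23 and 6.21 in R6/2 eyes and 7.88, 8.60, 7.77 and 8.01 in WT eyes. It was down-regulated to 33.9% of WT (log2 fold change -1.56, standard error 0.21, limma adjusted p = 0.0236), but it has near-identical copies in the genome and the value is uncertain. Of the 19 genes measured of the cytosolic ribosomal protein list, with a median of 0.03, 10 were tested and none was called. Glb1l2, a beta-galactosidase-like gene, had 4.19, 4.52, 4.44 and 3.98 in R6/2 eyes and 5.19, 5.82, 4.84 and 5.77 in WT eyes, or 45.9% of WT (-1.12, adjusted p = 0.142). WT replicates 2 and 4 were its highest arrays, and without them its adjusted p was 0.227. The related Glb1l3, and Camkv, a kinase-like protein of neurons, each fell by 0.86 on the log2 scale (adjusted p = 0.142 and 0.190), as named after their values had been seen.

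Immediate early and clock genes had no calls, with 17 of 24 and 11 of 18 measured genes tested. Of 24 immediate early genes measured 17 had a negative log2 fold change. Fos had 2.96, 3.18, 2.90 and 2.94 in R6/2 eyes and 4.02, 3.67, 3.48 and 3.19 in WT eyes (-0.59, limma adjusted p = 0.311), and Egr1 had 2.65, 2.72, 2.98 and 2.40 in R6/2 eyes and 4.25, 4.12, 2.85 and 2.72 in WT eyes (-0.80, adjusted p = 0.419). Only Fos kept the groups apart. Of 18 clock genes measured, 5 had all R6/2 arrays below all WT arrays, beside 1.69% of all genes. The median of the list was -0.11 with all arrays and 0.03 without WT replicates 1 and 3. Nr1d1 (REV-ERB alpha), which represses Arntl, had 6.22, 6.43, 6.47 and 6.46 in R6/2 eyes and 7.07, 6.87, 6.76 and 6.80 in WT eyes (-0.48, adjusted p = 0.250), and Per3, a period gene, had 5.18, 5.24, 5.0 and 4.99 in R6/2 eyes and 5.68, 5.53, 5.59 and 5.32 in WT eyes (-0.43, adjusted p = 0.309). Arntl (BMAL1) itself had 6.76, 6.88, 6.96 and 6.66 in R6/2 eyes and 6.74, 6.31, 6.48 and 5.84 in WT eyes and overlapped (0.47, adjusted p = 0.396). The hour of tissue collection is not given in the sources used here.

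The lens list had 26 positive log2 fold changes of 26 measured, and no call. Its median was 0.27, but 0.02 without WT replicates 2 and 4, whose list means of 7.41 and 7.23 were the lowest of the 8 arrays, against 7.80 to 7.91 in R6/2 eyes and 7.82 and 7.73 in WT replicates 1 and 3. Gje1, a connexin-like lens gene, had 4.11, 4.07, 4.29 and 4.40 in R6/2 eyes and 3.78, 3.64, 3.66 and 3.79 in WT eyes (0.50, limma adjusted p = 0.214), and was the lens gene with the lowest p. Mip, the lens water channel, had 8.86, 8.95, 8.76 and 8.98 in R6/2 eyes and 8.76, 8.01, 8.72 and 7.82 in WT eyes, lowest in WT replicates 2 and 4.

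No gene of the complement, macrophage, lymphocyte, endothelium, pericyte, myelin, cornea, outflow tissue, heat shock, antioxidant, oxidative phosphorylation, proteasome, CAG repeat instability or huntingtin partner lists was called. Only part of each list was tested, for instance 7 of 17 macrophage, 6 of 14 CAG repeat instability and 7 of 15 huntingtin partner genes measured. Serping1, the C1 inhibitor, had 7.14, 7.10, 6.91 and 6.80 in R6/2 eyes and 6.61, 6.35, 5.60 and 6.26 in WT eyes (log2 fold change 0.78, limma adjusted p = 0.266), and Chil1, a chitinase-like protein, 5.78, 5.68, 5.45 and 5.33 in R6/2 eyes and 4.91, 5.06, 4.44 and 5.28 in WT eyes (0.64, adjusted p = 0.309). Both kept the groups apart without passing the test. The macrophage genes Ctss and Lyz2 had 0.40 and 0.37 (adjusted p = 0.314 and 0.311), Mgp, matrix Gla protein, 0.41 (0.296), and the endothelial cadherin Cdh5 -0.46 (0.392). The repeat instability genes Mlh3, Pms1 and Pold1 had 0.15, 0.21 and 0.15, with adjusted p between 0.533 and 0.700.

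Gland and lipid transcripts set WT replicates 2 and 4 apart. Elovl3, a fatty acid elongase of the Harderian and sebaceous glands, had 1.86, 1.86, 3.04 and 7.14 in R6/2 eyes and 6.04, 9.11, 1.64 and 9.51 in WT eyes. Its log2 fold change was -3.10, with a standard error of 1.68 (limma adjusted p = 0.478). Far2, which makes wax alcohols, had 3.20, 3.40, 4.17 and 5.96 in R6/2 eyes and 5.54, 8.74, 2.89 and 9.06 in WT eyes, and Scd3, a desaturase of sebocytes and the Harderian gland, 5.33, 3.92, 7.40 and 9.32 in R6/2 eyes and 8.79, 10.54, 3.71 and 11.10 in WT eyes. R6/2 replicate 4 and WT replicate 1 were intermediate in all 3 genes, and WT replicate 3 was the lowest. The levels were thus graded over arrays of both groups.

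Genes of lipid synthesis used in many tissues followed it. Fasn, fatty acid synthase, had 7.20, 6.34, 6.79 and 7.16 in R6/2 eyes and 7.94, 9.93, 7.37 and 10.21 in WT eyes. It kept the groups apart but was not called (log2 fold change -1.99, standard error 0.57, limma adjusted p = 0.309), and was -0.78 without WT replicates 2 and 4. Scd1, the main stearoyl-CoA desaturase, had 7.44, 6.57, 6.75 and 7.80 in R6/2 eyes and 8.43, 9.67, 7.46 and 10.13 in WT eyes (-1.78, adjusted p = 0.313). Scd3 had a log2 fold change of -2.04 with all arrays and 0.24 without these 2. Of the meibomian and sebaceous list 14 of 16 genes measured were negative with a median of -1.79, which was -0.09 without WT replicates 2 and 4. The median of the fatty acid synthesis list, 20 of 22 negative, was -1.12 and -0.17 in the same way, and that of the cholesterol synthesis list, 18 of 18 negative, -0.16 and -0.01. None of these 3 lists held a called gene. The meibomian enzymes Awat1 and Awat2 were at 1.65 to 2.08 in R6/2 eyes and 1.70 to 2.27 in WT eyes, near the floor, in contrast to Elovl3 and Far2.

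Over all genes, 303 were more than 1 unit higher in both WT replicates 2 and 4 than in WT replicates 1 and 3, and 1 gene showed the reverse. The mean of these 303 genes was 4.09, 4.02, 4.31 and 4.61 in R6/2 eyes and 4.47, 6.35, 3.98 and 6.92 in WT eyes. None of the 303 was called, although 170 of them had a log2 fold change below -1. The genes were chosen by a wide gap among WT arrays, which raises both their spread and their WT mean. The lack of calls and the negative fold changes follow in part from that choice. Of 209 genes below -1 in all, 192 were not called, and 25 of the 209, of which 16 were called, remained below -1 without WT replicates 2 and 4. Without WT replicates 1 and 3, 204 of the 209 remained. Above 1 there were 5 genes, each called. With the mean of gland and adipocyte transcripts as a covariate, 22 genes were up-regulated and 88 down-regulated. Of the 60 genes called without it, 33 were among them, but the covariate itself separated the groups. The covariate had 3.64 in R6/2 replicate 4 and 3.78 in WT replicate 1, an order unlike that of the 303 genes.

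Adipocyte transcripts were divided, some with the order of the gland transcripts among WT arrays and some without. Adipoq (adiponectin) had 3.07, 2.73, 2.47 and 2.74 in R6/2 eyes and 2.89, 2.36, 2.89 and 3.09 in WT eyes, and leptin, Lep, was between 1.63 and 1.98 in R6/2 eyes and between 1.63 and 1.81 in WT eyes. Ucp1, the uncoupling protein of brown fat, had 4.27, 3.23, 2.55 and 2.88 in R6/2 eyes and 3.83, 2.35, 3.83 and 4.84 in WT eyes, and Cidec, a lipid droplet protein, 4.23, 3.08, 3.04 and 2.73 in R6/2 eyes and 4.16, 2.89, 4.13 and 4.93 in WT eyes. WT replicate 4 was the highest array of Ucp1 and Cidec, while WT replicate 2 was the lowest WT array of both. Fabp4, an adipocyte fatty acid binding protein that endothelium also makes, had 7.22, 5.91, 5.96 and 5.12 in R6/2 eyes and 7.13, 5.06, 7.49 and 7.68 in WT eyes, lowest in WT replicate 2. Other members were highest in WT replicates 2 and 4. Cidea, a lipid droplet protein of brown fat and sebaceous glands, had 4.31, 3.20, 4.09 and 5.67 in R6/2 eyes and 5.03, 7.70, 4.61 and 8.46 in WT eyes, the lowest log2 fold change of the list (-2.13, limma adjusted p = 0.396). Lpl, lipoprotein lipase, had 5.39, 4.54, 5.17 and 5.25 in R6/2 eyes and 5.68, 6.70, 5.66 and 7.78 in WT eyes (-1.37, adjusted p = 0.334). G0s2, a lipase inhibitor, had 4.03, 4.03, 4.01 and 4.14 in R6/2 eyes and 4.42, 5.14, 4.48 and 5.96 in WT eyes (-0.95, adjusted p = 0.334). Lpl and G0s2 did not overlap between groups, unlike Cidea. The 20 adipocyte genes measured had a median of -0.50 and no call, and a median of -0.43 without WT replicates 2 and 4. The mean of the list was 4.27, 3.72, 3.83 and 3.92 in R6/2 eyes and 4.32, 4.35, 4.36 and 5.34 in WT eyes. All R6/2 arrays lay below all WT arrays in it, and WT replicate 4 stood apart from the other WT arrays. Of the 20 genes, 5 had all R6/2 arrays below all WT arrays, beside 1.69% of all genes.

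Transcripts of secreted gland proteins picked out other arrays. Pip (prolactin-induced protein), made by lacrimal and salivary glands, had 1.61, 1.79, 7.27 and 1.68 in R6/2 eyes and 1.63, 5.25, 1.80 and 1.95 in WT eyes, and Lcn11, a lipocalin, had 2.60, 2.55, 5.55 and 2.55 in R6/2 eyes and 2.68, 4.0, 2.96 and 2.43 in WT eyes. R6/2 replicate 3 and WT replicate 2 were the high arrays in both. Pip and Lcn11, like Gnat1, Cryaa, Krt12, H2-K1, Mip, Far2, Awat1, Awat2 and Lep above, were named after their values had been seen. Bpifa2, a secretory protein, was highest in WT replicate 4, with 2.59, 2.48, 2.19 and 3.41 in R6/2 eyes and 4.23, 4.79, 2.96 and 6.90 in WT eyes. Lpo (lactoperoxidase), Pigr (polymeric immunoglobulin receptor) and Ltf (lactotransferrin), which lacrimal acini make, were between 2.40 and 3.98 in R6/2 eyes and between 1.95 and 3.71 in WT eyes. Lpo was highest in R6/2 replicate 3, at 3.98 against 2.43 to 2.76 in the other R6/2 arrays. Ltf was highest in WT replicate 4, at 3.71 against 2.92 to 3.2 in the other WT arrays. Aqp5, which cornea also expresses, was between 7.71 and 8.02 in R6/2 eyes and between 7.03 and 7.75 in WT eyes. Cartpt, a neuropeptide precursor of brain and retina, had 4.52, 4.51, 4.55 and 4.76 in R6/2 eyes and 5.45, 7.20, 5.52 and 8.23 in WT eyes. It had no overlap and the highest values again in WT replicates 2 and 4 (log2 fold change -2.02, standard error 0.52, limma adjusted p = 0.284). Without these 2 arrays the log2 fold change was smaller, at -0.90, but passed the threshold (adjusted p = 0.0453). With the gland and adipocyte covariate, which itself separated the groups, Cartpt did not pass (adjusted p = 0.520).

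**Figure D4:**
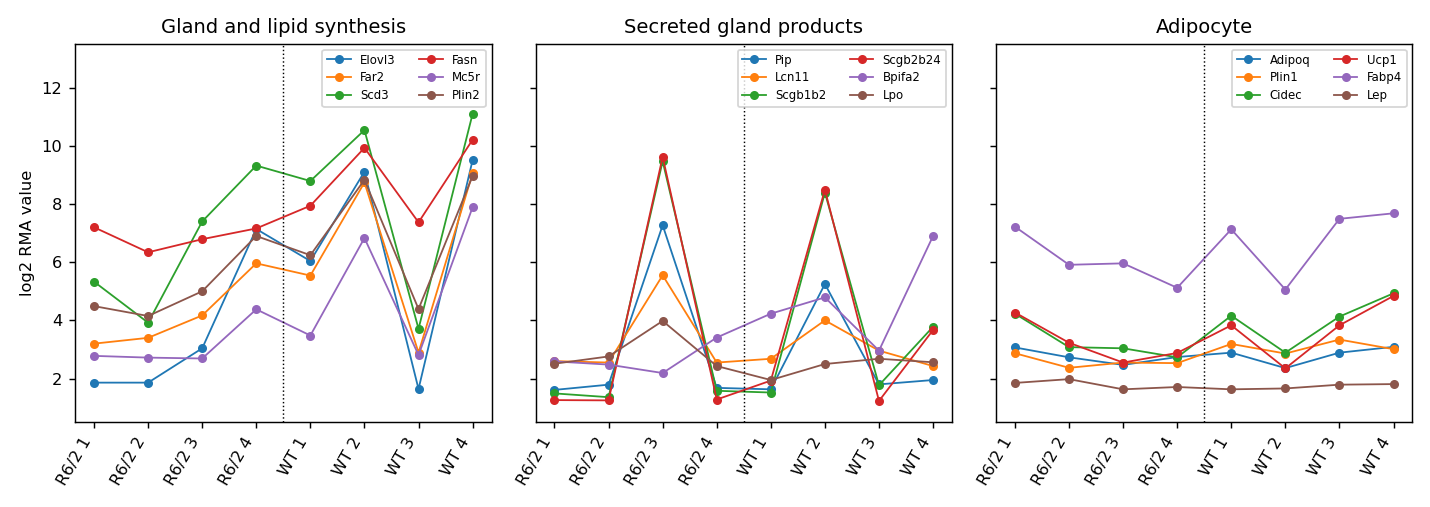
Log2 RMA values of gland and lipid genes (left), secreted gland products (middle) and adipocyte genes (right) in each array, the 4 R6/2 arrays left and the 4 WT arrays right of the dotted line. Elovl3 peaks in WT replicates 2 and 4 at 9.11 and 9.51, Pip in R6/2 replicate 3 at 7.27 and WT replicate 2 at 5.25, and Ucp1 in WT replicate 4 at 4.84.

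The number of genes that passed varied with the arrays used. Without WT replicates 2 and 4, 24 genes were up-regulated and 63 down-regulated, and 39 of the 60 genes called on all arrays were among them. Without WT replicates 1 and 3, an alternative added after the data had been seen, 1425 were up-regulated and 1500 down-regulated, including all 60. Leaving out WT replicate 3 alone gave 670 and 890, and leaving out R6/2 replicate 3 alone gave 2 and 9. Opn1sw, Opn1mw, Arr3, Pvalb, Myh15, Actn3, Rps3a1, Fabp7 and Tmem26 were called in each of the 21 alternatives fitted. Myh2 and Tcap lost the call in 1 alternative, the fit of all 15 arrays, B2m in 3, Gnat2, Myh4 and Elovl2 in 7, Spc25 and Thbs1 in 8, Reep6, Pfkfb2 and Col12a1 in 9, Tnni2 in 12 and Col1a2 in 13. No called gene changed direction in any of them.

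**Figure D5:**
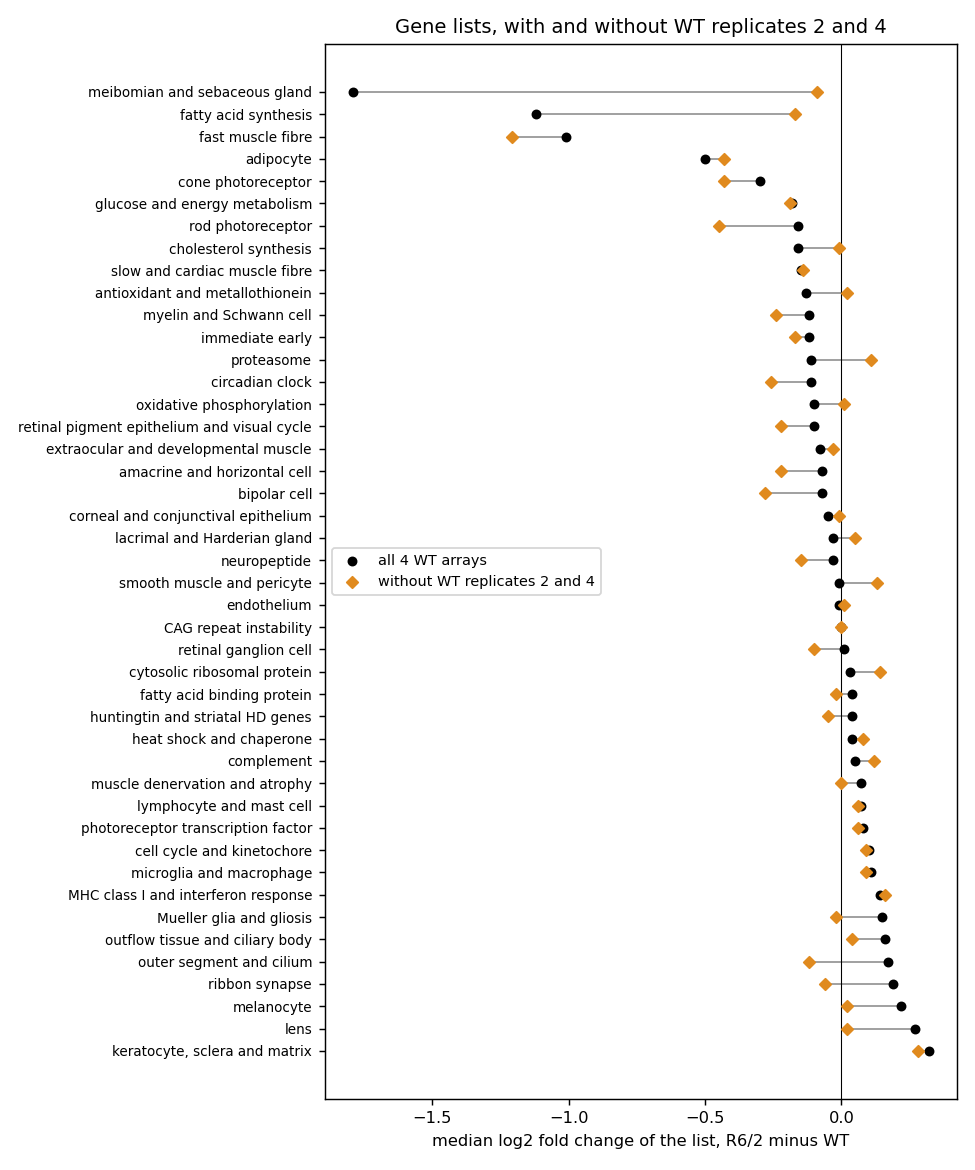
Median log2 fold change (R6/2 minus WT) of each gene list over all arrays (black circles) and without WT replicates 2 and 4 (orange diamonds). The meibomian and sebaceous list goes to -0.09 without the 2 arrays and the lens list to 0.02, while the fast muscle list stays at -1.21 and the keratocyte, sclera and matrix list at 0.28.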

How the data were processed

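RMA (affy, per the labels) had been run by the authors, who deposited log2 values for every probe set. Scan dates and background levels were not analysed here. Of several probe sets for a gene, that of highest mean over the 15 arrays was used. After removal of the 50% of genes least variable by interquartile range over these arrays, limma 3.58.1 (R 4.3.3) was fitted to the 8 arrays without covariates. Genes were called at a two-sided p below 0.05 whose adjusted value (Benjamini-Hochberg) was below 0.20. Genes removed by the filter were not tested and could not be called. The method was tested on simulated data. The number of arrays, 4 per group, limits the precision. Percent of WT is the ratio of means after undoing the log2. The comparison and the 48 gene lists (753 of 829 genes measured) were chosen with earlier results of these data known. Named genes were, of those called without overlap, the 15 that rose most and the 15 that fell most, every called list member, for each list its 3 genes of lowest p, and study-named, reference, sex-linked, gland and fat genes. Others are marked in the text. Alternatives varied the filter, threshold, probe sets, moderation, normalization, weights, replicate block, gland and fat covariate and arrays. Promoters came from RefSeq (GRCm38.p6).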

Additional observations from a re-analysis of the deposited data

Results flagged for a closer look

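In 7 of 240 groups of 4 arrays, over called genes, gland and fat genes and list means, 1 array stood far from the other 3. Chance alone marks a small share of groups (about 5%). Reep6 had 9.07 in R6/2 replicate 2, against 9.03 to 9.04 in the other R6/2 arrays. The mean of the rod list was 7.91 in R6/2 replicate 2, against 7.75 to 7.76 in the other R6/2 arrays. That of the Mueller glia list was 5.96 in R6/2 replicate 3, against 5.82 to 5.84. That of the antioxidant and metallothionein list was 5.91 in R6/2 replicate 1, against 5.96 in the other R6/2 arrays. The mean of the fatty acid binding protein list was 4.04 in WT replicate 2, the array with the lowest Fabp4. The mean of the adipocyte list was 5.34 in WT replicate 4, against 4.32 to 4.36 in the other WT arrays. The mean of the qPCR reference list was 8.13 in WT replicate 4, against 8.04 to 8.06 in the other WT arrays.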

How the results depend on the processing

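The counts of genes up-regulated and down-regulated, 30 and 30, depended on the processing. They were 2 and 10 at an adjusted p under 0.05, 8 and 11 in a fit of all 15 arrays as 4 groups, 819 and 929 with array weights, and 1425 and 1500 without WT replicates 1 and 3. With the interquartile range taken over the 8 arrays 19 were up-regulated. With the mean of the lacrimal and Harderian gland and adipocyte lists as a covariate 88 were down-regulated, and without WT replicates 2 and 4, 63. Leaving out single arrays gave 2 to 670 up-regulated and 9 to 890 down-regulated genes, namely 21 and 17 without WT replicate 1, 9 and 16 without WT replicate 2, 670 and 890 without WT replicate 3, 16 and 37 without WT replicate 4, and 5 and 21, 3 and 13, 2 and 9, and 6 and 12 without R6/2 replicates 1, 2, 3 and 4. Other alternatives stayed within 1.5 times. The cause of these shifts was not tested. Deviations of each array from its group mean, over the tested genes, were correlated between R6/2 and WT arrays. The correlations were 0.11, -0.29, -0.22 and 0.26 for same-numbered arrays and -0.29 to 0.35 for unlike-numbered arrays. There was thus no sign that the numbers pair the samples, though these values cannot exclude it. With the replicate block 8 genes were up-regulated and 17 down-regulated, all 25 among the 60. Of the 60 called genes, 9 kept the call in all 21 alternatives, 8 lost it in 1 to 4 and 43 in 5 or more, and none changed sign.

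Signs also turned in list medians, among them, without WT replicates 2 and 4, outer segment (-0.12), ribbon synapse (-0.06), Mueller glia (-0.02) and proteasome (0.11), and, without WT replicates 1 and 3, cone (0.02), rod (0.04), bipolar (0.12) and clock (0.03). Among named genes, signs turned in some that were not called. Adipoq and Elovl3 belong to the lists averaged in the gland and fat covariate, so their values with it are no independent test. That covariate also separated the groups. With the gland and fat covariate, the log2 fold change was 0.01 for Adipoq and Cyc1, 0.17 for Canx, 0.30 for Cat, 0.79 for Cnn1, -0.01 for Dct and Otx2, 0.21 for Elovl3, -0.32 for Gpr179, 0.00 for Lss, -0.11 for Ncam1, 0.07 for Pmvk, 0.13 for Psma7, 0.08 for Psmb2 and Sqle, -0.08 for Rpl3, 1.08 for Scd3, 0.11 for Sdha, 0.01 for Sdhb and 0.09 for Slc7a11. Without WT replicates 2 and 4, it was 0.14 for Canx, 0.12 for Cat, 0.59 for Cnn1, -0.17 for Gpr179, -0.02 for Ncam1, 0.04 for Psma7 and 0.24 for Scd3. With array weights it was 0.15 for Adipoq, 0.04 for Sdha and 0.16 for Ucp1, and with quantile normalization 0.04 for Canx and 0.02 for Sdha. Without WT replicate 4 it was 0.03 for Adipoq, 0.06 for Canx and 0.05 for Sdha, without R6/2 replicate 3, 0.03 for Adipoq, without R6/2 replicate 2, -0.02 for Bpgm, and without WT replicates 1 and 3, 0.02 for Adipoq and Ugt8a. Over the omission of single arrays, Adipoq ranged from -0.21 to 0.03, Bpgm from -0.02 to 0.18 and Sdha from -0.12 to 0.05.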

Other observations

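Secretoglobins, odorant-binding proteins and exocrine gland peptides marked the same 2 arrays as Pip and Lcn11. R6/2 replicate 3 was more than 1 unit above the other R6/2 arrays in 29 genes, and WT replicate 2 above the other WT arrays in 22. The 2 sets shared 16 genes, of which 6 were secretoglobins. Scgb2b24, which was chosen like the genes below after its values were seen, had 1.26, 1.25, 9.62 and 1.28 in R6/2 eyes and 1.93, 8.49, 1.23 and 3.67 in WT eyes, and Scgb1b2 had 1.49, 1.36, 9.47 and 1.58 in R6/2 eyes and 1.52, 8.39, 1.77 and 3.78 in WT eyes. Among R6/2 arrays, 34 of the 38 genes more than 1 unit higher in replicate 4 belonged to the 303 genes that were high in WT replicates 2 and 4.

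Prolactin, Prl, a pituitary hormone, had 2.56, 3.02, 2.05 and 1.85 in R6/2 eyes and 6.28, 1.85, 2.13 and 5.71 in WT eyes, high in WT replicates 1 and 4. Growth hormone, Gh, was highest in the same 2 arrays, with 3.63, 2.90, 2.36 and 2.77 in R6/2 eyes and 4.90, 2.63, 2.90 and 4.12 in WT eyes.

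The calsequestrin gene Casq2, of slow and cardiac muscle, went against the muscle genes around it, with 6.06, 4.31, 5.93 and 4.80 in R6/2 eyes and 4.49, 4.34, 3.93 and 4.64 in WT eyes. The groups overlapped through R6/2 replicate 2, the array with the fewest fast muscle transcripts.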
